A study of Mus musculus with 9 samples.

Results

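Dppa2, Dppa3, Dppa4, Dppa5a, Utf1, Fbxo15, Tcl1 and L1td1 are genes used as markers of mouse embryonic stem cells, and their signals were followed over 9 expression arrays. A probe set, the group of short probes that reads 1 transcript, belonged to them if the array's annotation gave it 1 of these 8 symbols and no other. That rule took 11 of 45037 probe sets, of which 10 were bright enough to be tested, for 8 of 13376 tested genes. The rule itself uses no signal, but the genes were named with earlier results of these data known. For each gene the tested probe set of highest mean signal is described, and the other probe sets of Dppa2 and Utf1 are given beside it.

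The cells were D3-pOct4 mouse embryonic stem cells, a D3 line cultured at low density in medium with fetal bovine serum, and every group is of this 1 line. In the LIF group, recombinant leukemia inhibitory factor was present at 1000 U/ml, the cytokine that keeps mouse embryonic stem cells undifferentiated. The no LIF group had neither LIF nor a donor. The donor group had no LIF and received 2 µM of DETA/NO (diethylenetriamine/nitric oxide adduct), a compound that releases nitric oxide. All cultures ran for 7 days, and each group has 3 arrays, replicates 1, 2 and 3, from passages 31, 33 and 34. The labels give no genotype or age beyond the line's name, and do not say how far the cultures of a passage were separate, so a p-value here reflects how much these arrays scatter, which may be technical.

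Stem cell markers differ in how evenly the cells of a culture carry them. Some, such as Utf1, are read in most undifferentiated cells, while others, such as Dppa3 and Tcl1, are known to be on in some cells and off in others of the same dish. DPPA2 and DPPA4 are nuclear proteins that bind DNA together and help keep developmental promoters open to activation, and they sit upstream of genes of the early cleavage embryo. DPPA3, also called Stella, is a maternal factor that shields DNA methylation in the zygote, and DPPA5A is a protein with an RNA-binding KH domain. UTF1 is a chromatin-bound transcriptional coactivator, FBXO15 the substrate-binding subunit of an SKP1-CUL1 ubiquitin ligase, TCL1 a coactivator of the kinase AKT, and L1TD1 an RNA-binding protein that descends from a LINE-1 element.

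RefSeq promoters were given for 3 of the 8 genes, Utf1, Tcl1 and L1td1. They are shown because no promoter of the other genes was given, and they were not picked by their spread. By the SD of log2 signal over the arrays, and by the probe sets chosen, Utf1 varied least and Tcl1 and L1td1 most of the 8 genes. Each is the 250 bases before the gene's start, on the gene's own strand, with every CpG in capitals. In the build GRCm38.p6 the Utf1 promoter is chr7:139943606-139943855 on the plus strand, that of Tcl1 is chr12:105222738-105222987 on the minus strand, and that of L1td1 is chr4:98726504-98726753 on the plus strand.
Utf1: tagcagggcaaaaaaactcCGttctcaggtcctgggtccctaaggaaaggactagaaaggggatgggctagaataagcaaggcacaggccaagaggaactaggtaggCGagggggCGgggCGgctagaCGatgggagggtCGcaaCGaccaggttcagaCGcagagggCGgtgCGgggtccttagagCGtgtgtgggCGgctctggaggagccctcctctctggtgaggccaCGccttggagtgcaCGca
Tcl1: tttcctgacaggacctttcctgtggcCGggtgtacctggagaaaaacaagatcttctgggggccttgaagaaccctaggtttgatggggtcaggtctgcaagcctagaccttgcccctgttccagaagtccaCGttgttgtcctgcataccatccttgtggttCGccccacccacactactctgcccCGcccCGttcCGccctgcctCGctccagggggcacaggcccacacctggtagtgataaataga
L1td1: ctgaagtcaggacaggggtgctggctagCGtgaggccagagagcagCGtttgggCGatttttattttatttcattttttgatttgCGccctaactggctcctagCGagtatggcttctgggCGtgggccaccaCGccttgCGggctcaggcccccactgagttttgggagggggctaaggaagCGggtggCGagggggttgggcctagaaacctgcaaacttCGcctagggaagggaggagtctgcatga
The Utf1 promoter held 14 CpGs, that of L1td1 11 and that of Tcl1 7, against a median of 6 over 32841 promoters of the same length. The share of G and C was 61.6% for Utf1 and 57.6% for both Tcl1 and L1td1, against a median of 52.4%. Both strands were searched for 4 motifs, the POU octamer ATGCAAAT, the STAT motif TTCNNNGAA, the ESRRB motif TCAAGGTCA and the SOX motif ACAAAG. None of the 3 windows held any of these letters. Over all promoters the shares with a match were 1.6%, 7.02%, 0.387% and 16.5% in that order.

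Several arrays stood apart. The median signal was 20.8 to 23.3 on LIF replicate 1 and donor replicates 1 and 2, called the brighter arrays here, and 13.9 to 17.8 on the other 6. Socs3, which LIF induces through STAT3, went against the labels on 2 arrays. It read 282 on 1 array (label LIF replicate 2) and 3054 on another (label no LIF replicate 2), against 1794 and 3213 on the other LIF arrays and 102 and 330 on the other no LIF arrays. No LIF replicate 1 and donor replicate 3 correlated with r = 0.98 over 29811 probe sets, the highest of 36 pairs of arrays. The 6 defining markers of embryonic stem cells (Pou5f1, Sox2, Nanog, Zfp42, Lin28a and Sall4) lay above the array's median on all 9 arrays.

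By the probe set chosen for each, the 8 genes parted into 2 that held nearly the same signal on all 9 arrays, Dppa5a and Utf1, and 3 that differed by 9-fold or more between arrays, L1td1, Tcl1 and Dppa3. Dppa2, Dppa4 and Fbxo15 lay between. Groups accounted for 3.38% of the variation of L1td1, 30.2% of that of Tcl1 and 2.42% of that of Dppa3, and the rest lay between arrays of 1 group. With 3 arrays a group, some share falls between groups without any effect of group. The share over all probe sets is not given, so these shares are descriptions. No gene differed between groups by the limma test. A fold here is the highest signal over the lowest of the 9 arrays.

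**Figure D1:**
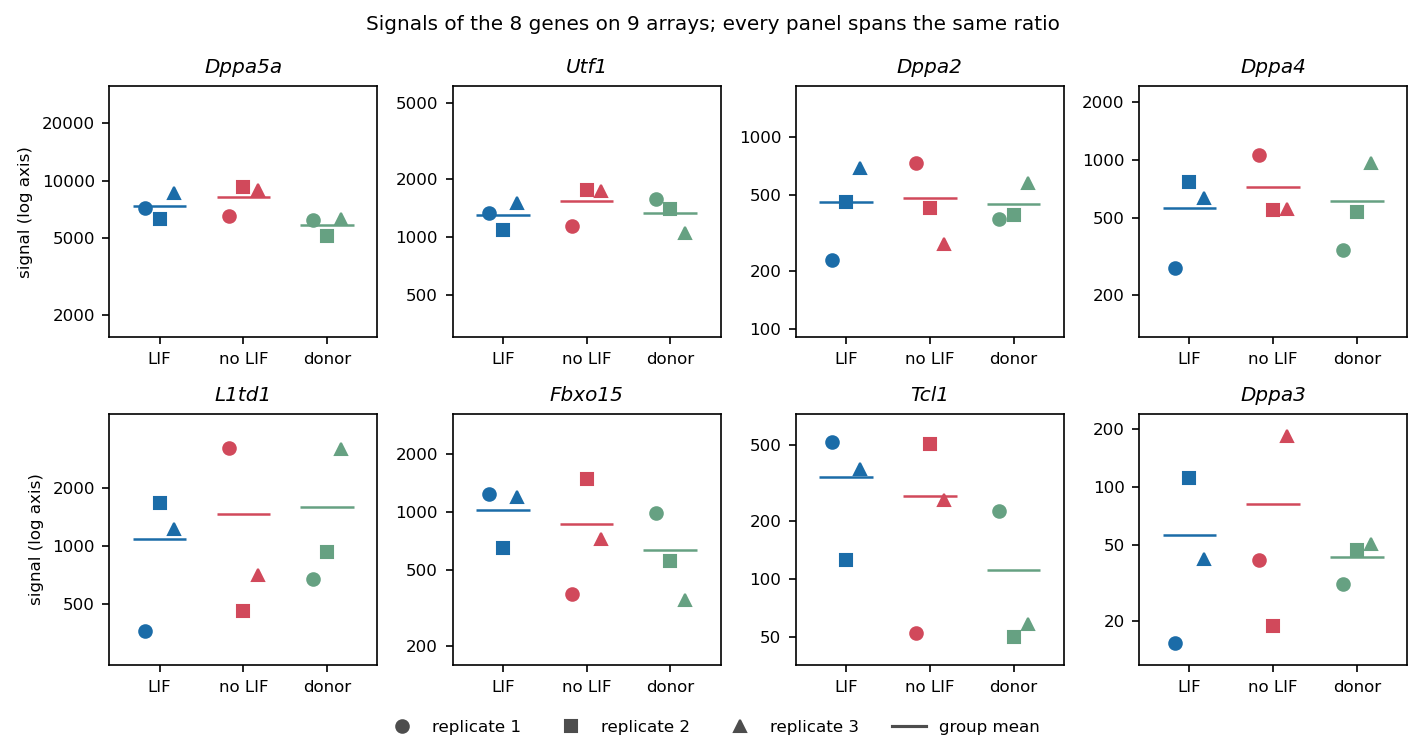
Signal of each of the 8 genes on a log axis (vertical) in the LIF, no LIF and donor groups (horizontal); a marker is 1 array, its shape the replicate, and a line the mean of 3 arrays. All panels span the same ratio, so Dppa5a (1.8-fold from lowest to highest) and Utf1 (1.68-fold) appear flat while L1td1 (9-fold), Tcl1 (10.3-fold) and Dppa3 (11.9-fold) fill their panels.

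Dppa5a, read by probe set 1416552_at, had signals of 7216, 6292 and 8570 in LIF replicates 1 to 3. It had 6538, 9249 and 8950 without LIF and 6257, 5137 and 6285 with the donor. The donor group was the lowest and did not overlap either other group, though it lay below LIF replicate 2 by only 6285 against 6292. The group means were 7359 ± 1145 (SD, n = 3) with LIF, 8246 ± 1486 without and 5893 ± 655 with the donor. Groups accounted for 53.2% of the variation of its log2 signal over the arrays, the highest share of the 8 genes. The share over all probe sets is not given beside it, so it is not read as an effect of group.

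Utf1, read by probe set 1416899_at, gave 1340, 1092 and 1496 with LIF. It gave 1145, 1758 and 1746 without LIF and 1575, 1406 and 1049 with the donor. All 3 groups overlapped, with means of 1310 ± 204 (SD, n = 3), 1550 ± 351 and 1343 ± 268 in the same order. The other tested probe set, 1443786_at, ran from 67.0 to 172.9 and followed the first with r = 0.88 over 9 arrays. The SD of its log2 signal was 0.43, above the 0.28 of the first, so Utf1 was less even by this probe set. The remaining probe set, 1458333_x_at, read 0.589 to 20.4, lay below the array's median on all 9 arrays and was not tested.

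Dppa2 and Dppa4 encode partner proteins and lie side by side on the chromosome, with 0 protein-coding genes between them in GRCm38.p6. Dppa4 (1429597_at) had signals of 275, 770 and 637 in the LIF group, 1061, 551 and 556 in the no LIF group, and 340, 538 and 969 in the donor group. Dppa2 (1453223_s_at) had 227, 458 and 686 in the LIF group, 731, 424 and 276 in the no LIF group, and 372, 393 and 574 in the donor group. By these probe sets both were lowest on LIF replicate 1 and highest on no LIF replicate 1, and the groups overlapped for both. The group means of Dppa2 lay within 447 to 477, with SDs of 111 to 232 (n = 3). Those of Dppa4 were 561 ± 256 (SD, n = 3) with LIF, 723 ± 293 without and 615 ± 321 with the donor. The other Dppa2 probe set, 1429654_at, ran from 228 on no LIF replicate 3 to 563 on LIF replicate 3. Its lowest and highest arrays thus differed from those of the first, to which it had r = 0.82 over 9 arrays.

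Dppa4 was the 1 gene of the 8 whose signal parted the brighter arrays from the rest. It read 275 to 538 on those 3 and 551 to 1061 on the other 6, while the signals of the other 7 genes overlapped between them. Without the brighter arrays the SD of its log2 signal was 0.40, against 0.64 over all 9. Those 3 arrays held its lowest signals, so a smaller SD follows from leaving them out and is no test of brightness. The part of brightness in the Dppa4 signal was not tested.

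L1td1 (1457314_at) read 362, 1673 and 1236 with LIF. It read 3257, 460 and 708 without LIF and 677, 928 and 3197 with the donor. Each group held arrays that differed by more than 4-fold, and the highest signals came from 1 array without LIF and 1 with the donor. The means were 1090 ± 668 (SD, n = 3), 1475 ± 1548 and 1601 ± 1388. No LIF replicate 1 and donor replicate 3, the pair most alike over all probe sets, held those 2 highest signals, and no pair of arrays was closer in L1td1.

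Tcl1 (1422458_at) read 516, 125 and 375 with LIF. It read 52.7, 505 and 258 without LIF and 225, 50.2 and 58.4 with the donor. LIF replicate 2 was low within its group and no LIF replicate 2 was high, the same 2 arrays on which Socs3 went against the labels. The means were 339 ± 198 (SD, n = 3), 272 ± 226 and 111 ± 98.6, and the groups overlapped.

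Fbxo15 (1427238_at) read 1238, 646 and 1190 on the LIF arrays, 372, 1486 and 721 on the no LIF arrays, and 990, 551 and 348 on the donor arrays. The highest array was no LIF replicate 2 and the lowest donor replicate 3. The means were 1024 ± 329 (SD, n = 3), 860 ± 570 and 630 ± 328. As with Tcl1, the lowest LIF array was replicate 2 and the highest no LIF array was replicate 2.

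Dppa3 (1424295_at) read 15.4, 111 and 41.9 on the LIF arrays, 41.8, 18.9 and 184 on the no LIF arrays, and 31.3, 47.0 and 50.4 on the donor arrays. LIF replicate 1 lay below its array's median, the only such case among the 8 chosen probe sets. The donor arrays were the most even, at 42.9 ± 10.2 (SD, n = 3), inside the range of both other groups, whose means were 56.0 ± 49.2 with LIF and 81.5 ± 89.3 without.

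The SD of log2(signal + 3) over the 9 arrays measured steadiness, and its percentile was taken among tested probe sets of like mean signal, in 4 bins of equal size. Utf1 had an SD of 0.28, at percentile 9.22, by its brighter probe set and 0.43, at percentile 29.9, by the other. Dppa5a had an SD of 0.29, at percentile 10.04. Dppa2 lay at 0.56 (percentile 56.3), Dppa4 at 0.64 (66.3) and Fbxo15 at 0.76 (77.5). These 3 genes thus varied about as much as, or somewhat more than, other probe sets of like signal. Dppa3 had an SD of 1.05 (percentile 82.9), L1td1 1.13 (92.2) and Tcl1 1.35 (96.2). Each bin held 7452 or 7453 probe sets. The percentiles describe these 9 arrays and carry no test.

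**Figure D2:**
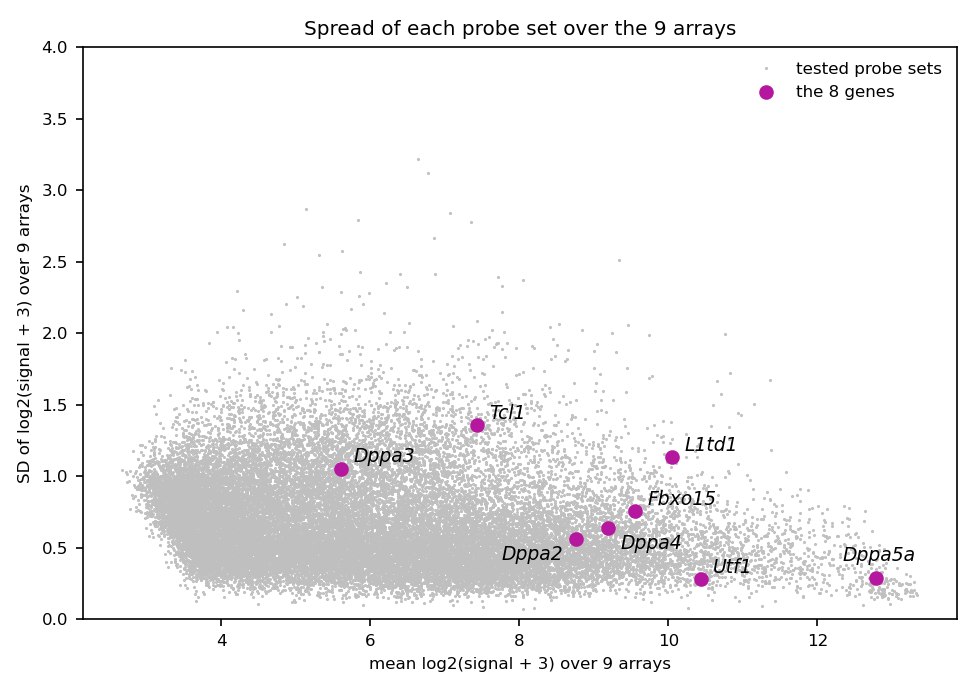
SD of log2(signal + 3) over 9 arrays (vertical) against its mean (horizontal) for the 29811 tested probe sets in grey and the 8 genes in colour. Utf1 and Dppa5a lie low in the cloud at SDs of 0.28 and 0.29, and Tcl1 and L1td1 above most probe sets of like mean at 1.35 and 1.13.

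The first comparison asked what withdrawal of LIF did to these markers over 7 days. No gene of the 8 passed the limma test of no LIF against LIF at an adjusted p under 0.05, and neither did any other probe set, so 0% of 29811 were called. At an unadjusted p under 0.05 there were 459 probe sets, 0 of them from the 8 genes. Differences are on the scale of log2(signal + 3), on which a change in a dim probe set appears smaller than it is. The 8 genes ran from -0.59 for Tcl1 (SE 0.86) to 0.42 for Dppa4 (SE 0.51), 6 positive and 2 negative, with a median of 0.16 and limma adjusted p of 0.973 to 0.989. Over all 13376 genes the median was 0.01 and 50.4% were positive. Without both arrays on which Socs3 went against the labels, the differences were -1.88 for Tcl1, -1.22 for Fbxo15, 1.67 for Dppa3, 1.18 for L1td1 and 0.87 for Dppa4, with limma adjusted p of 0.553 to 0.628. The groups overlapped for all 8 genes, against 7.6% of probe sets whose groups did not overlap.

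Small mean differences went with large and opposite ones at single passages. The passage 33 difference is between the 2 arrays on which Socs3 went against the labels. The labels do not say whether arrays of 1 passage form a pair. The difference of L1td1 was 3.16 at passage 31, -1.85 at passage 33 and -0.80 at passage 34. That of Tcl1 was -3.22, 1.98 and -0.53 at the same passages, opposite in sign to L1td1 at passages 31 and 33. None of the 8 genes had 1 sign at all 3 passages in this comparison, a count that rests in part on passage 33. For Utf1 the passages ran only from -0.23 to 0.69, and the 95% interval of its difference, -0.44 to 0.89, bounds a change of its level more closely than that of Tcl1, -2.48 to 1.30.

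The second comparison asked what the nitric oxide donor did in cells without LIF. Again 0% of probe sets were called by limma, and the smallest adjusted p was 0.929; 1498 had an unadjusted p under 0.05, 0 of them from the 8 genes. Dppa5a had a difference of -0.47 (SE 0.23; 95% interval -0.99 to 0.04), with an unadjusted p of 0.0665 and a limma adjusted p of 0.929. It was the 1 gene of 8 whose groups did not overlap, where 8.92% of all probe sets did not. Its differences at the 3 passages, -0.06, -0.85 and -0.51, are therefore bound to share 1 sign and add nothing to that. Tcl1 had a difference of -1.10 (SE 0.86), and of 2.03, -3.25 and -2.09 at the 3 passages. Its difference was -0.41 without no LIF replicate 2, whose Socs3 went against its label, and -2.005 without no LIF replicate 1.

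Of the 8 genes, 7 had a negative difference in the second comparison and only L1td1 a positive one, 0.31 (SE 0.83), which was 1.63 with brightness as a block, 1.64 without the 3 brighter arrays and -0.27 without both arrays on which Socs3 went against the labels. The median was -0.31, against -0.02 over all genes, of which 47.6% were positive. This count depended on the scaling. With quantile normalization 5 were negative and the median was -0.22. Without the 3 brighter arrays 5 were negative too, with a median of -0.23, and with brightness as a block 4 were negative, with a median of 0.03. Without both arrays on which Socs3 went against the labels the count was again 7, with a median of -0.32.

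The third comparison set the donor group against LIF, to see how far cells with the donor resembled cells kept with LIF. The limma test called 0% of probe sets, and 578 had an unadjusted p under 0.05, 0 of them from the 8 genes. Tcl1 had the largest difference of the 8, -1.69 (SE 0.86; 95% interval -3.59 to 0.20), with an unadjusted p of 0.0747 and a limma adjusted p of 1.00. It was lower with the donor at all 3 passages, with differences of -1.19, -1.27 and -2.62, though the groups overlapped. The differences of Fbxo15, -0.77 (SE 0.55), and Dppa5a, -0.32 (SE 0.23), also missed the test. That of Fbxo15 was negative at all 3 passages as well. The share of all probe sets with 1 sign at all 3 passages was not computed. Dppa5a was the 1 gene of 8 whose groups did not overlap, against 5.98% of probe sets, which fixes its sign at every passage.

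The other 5 genes lay from -0.01 for Dppa3 to 0.47 for L1td1 (SE 0.83) between donor and LIF. Over the 8 genes 4 were positive and 4 negative, with a median of 0.01, against -0.01 over all genes. Tcl1 had a difference of -2.29 without both arrays on which Socs3 went against the labels, and of -1.41 without the most alike pair. The donor and LIF comparisons share arrays with the first 2, so their values stand side by side and are not independent.

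**Figure D3:**
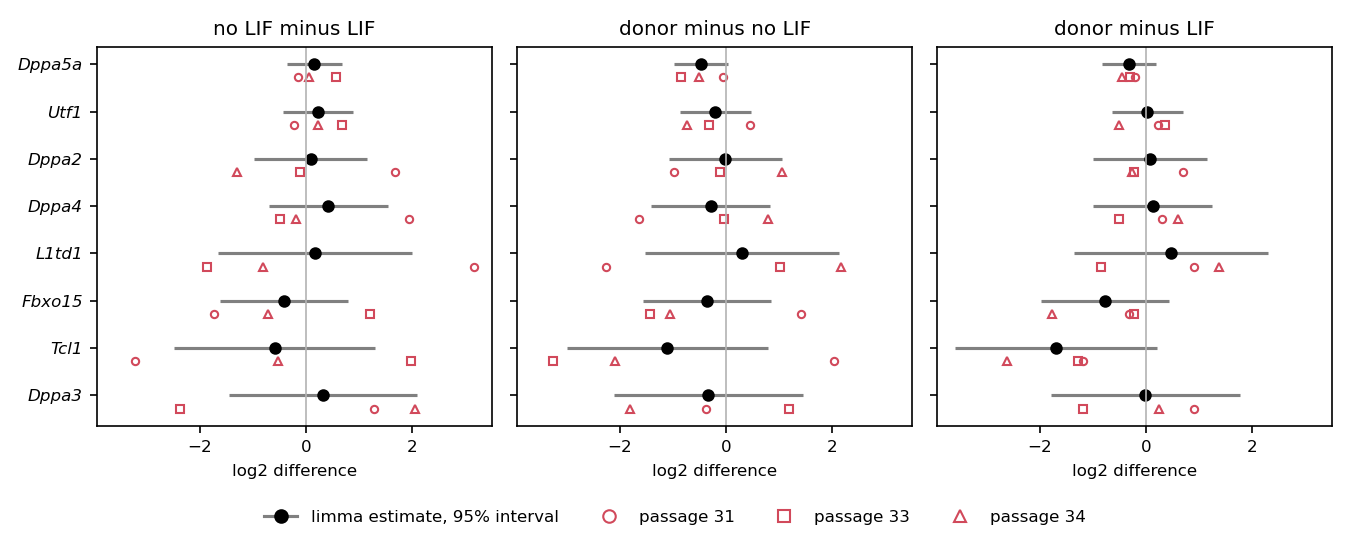
Log2 difference (horizontal) of each of the 8 genes (vertical) in the 3 comparisons; black points are limma estimates with 95% intervals and open markers the differences at passages 31, 33 and 34. Every interval crosses 0, those of Dppa5a and Utf1 are the narrowest, and the passages of Tcl1 and L1td1 lie on both sides of 0 for no LIF against LIF.

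The genes that varied did not vary alike. Tcl1 and Fbxo15 were high and low on the same arrays, with r = 0.94 over 9 arrays (rho 0.90). L1td1 and Dppa4 formed the other set, with r = 0.90 (rho 0.92), and Dppa2 by its chosen probe set followed them with r = 0.80 to each. The r of the other Dppa2 probe set to these genes was not computed. L1td1 had r = -0.85 to Fbxo15 and -0.79 to Tcl1, and Dppa4 had -0.72 and -0.65. Dppa2 opposed them less, at -0.43 and -0.47. All 28 pairs were computed, each correlation is over 9 arrays that share their scaling and brightness differences, and none was tested.

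Leaving out the most alike pair of arrays left 7 arrays and weaker opposition. Tcl1 and Fbxo15 then had r = 0.91, L1td1 and Dppa4 0.78, and L1td1 and Fbxo15 -0.59. Dppa4 had -0.39 to Fbxo15, and Dppa2 had 0.06 to Fbxo15 and -0.14 to Tcl1. On the 6 arrays that were not brighter, r was 0.98 for Tcl1 and Fbxo15, 0.97 for L1td1 and Dppa4 and -0.88 for L1td1 and Fbxo15. Over all 9 arrays the steady genes went with the Tcl1 set, at r = 0.77 for Dppa5a and 0.66 for Utf1 to Tcl1. Without the most alike pair these were 0.82 and 0.41, and on the 6 arrays that were not brighter 0.91 and 0.88. Dppa3 had r between -0.45 and 0.43 to the other 7 genes over 9 arrays. Without the most alike pair its r was -0.72 to Fbxo15, 0.62 to Dppa4 and 0.63 to L1td1, and on the 6 arrays that were not brighter these were -0.30, -0.09 and 0.05.

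**Figure D4:**
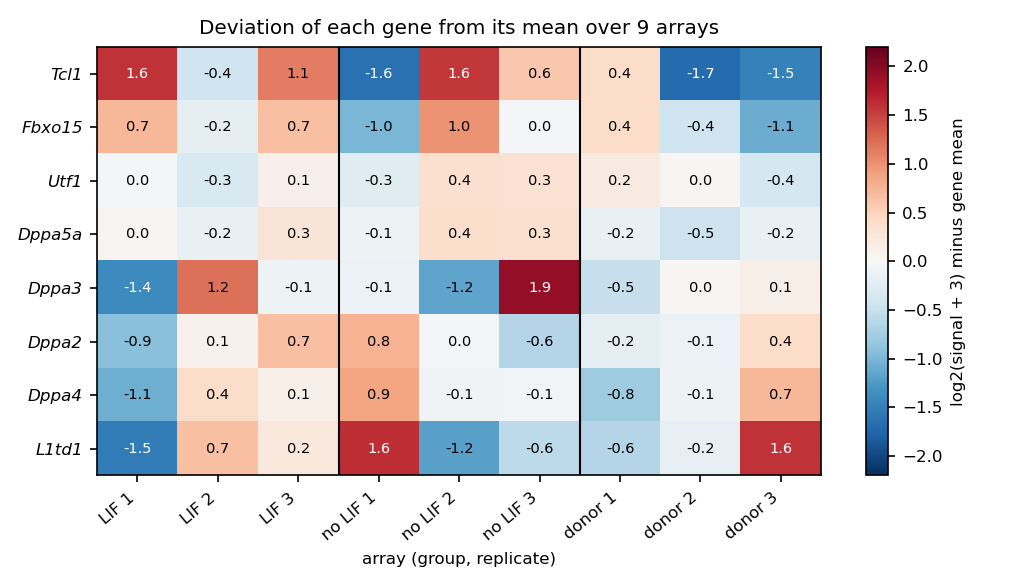
Log2(signal + 3) of each gene (rows) minus its mean over 9 arrays, by array (columns: group and replicate; black lines part the groups). Tcl1 and Fbxo15 are high on LIF replicates 1 and 3 and no LIF replicate 2, where L1td1 is low or near its mean, and L1td1 is highest on no LIF replicate 1 and donor replicate 3.

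The 8 genes were set beside other pluripotency genes. Of these, 13 are known to vary between cells of a culture and 10 to be carried broadly, and all were tested. The varying genes had a median SD over the arrays of 1.03, from 0.46 for Zfp42 to 2.78 for Tbx3, a T-box factor of the naive state. The broadly carried genes had a median of 0.54, from 0.17 for Sall4, a zinc finger factor of the core network, to 1.00 for Lin28a, an RNA-binding inhibitor of let-7. The median over the 8 genes was 0.70, and over all 13376 genes 0.55. It was 0.50 over genes in the brightest of the 4 bins. That bin held all 10 broadly carried genes, 10 of the 13 varying genes and 7 of the 8 genes. Below 0.50 lay 5 of the broadly carried genes, 1 of the varying genes and 2 of the 8 genes. An SD over arrays does not measure variation between cells. Utf1 and Dppa5a lay near Trim28, a corepressor at 0.25, and Tcl1 next to Klf4, a naive pluripotency factor at 1.36.

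**Figure D5:**
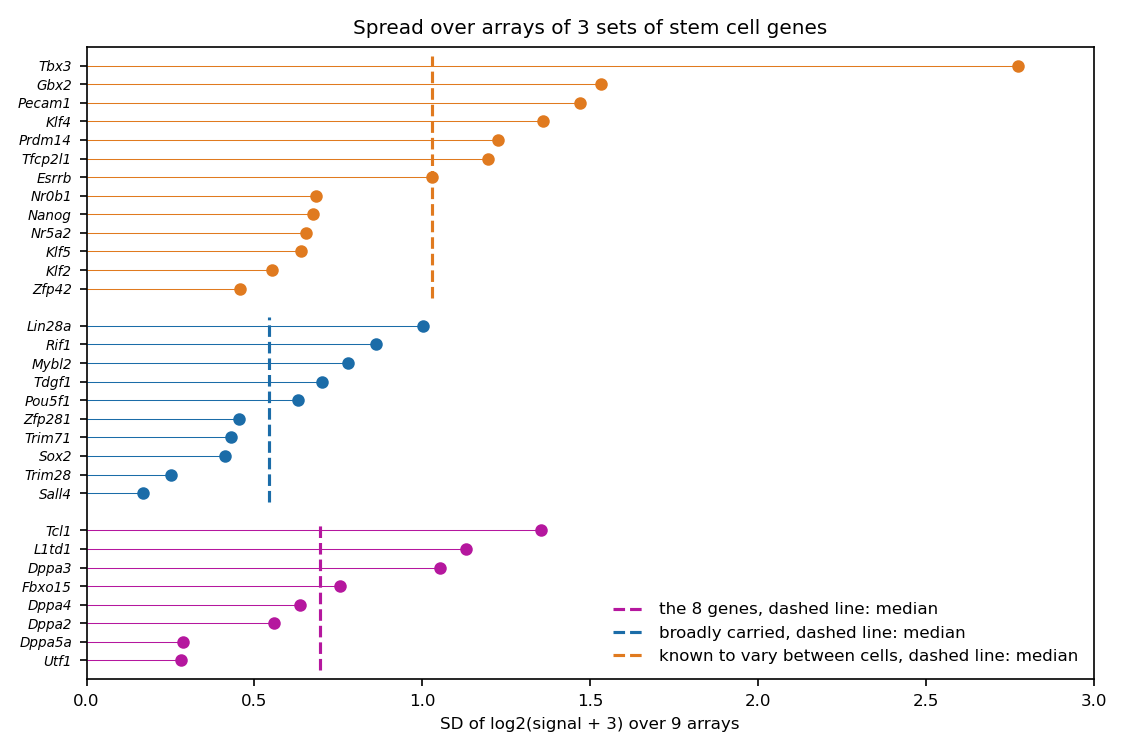
SD of log2(signal + 3) over 9 arrays (horizontal) for the 8 genes, 10 broadly carried and 13 varying pluripotency genes (vertical); dashed lines are the medians, 0.70, 0.54 and 1.03. Utf1 and Dppa5a lie among the lowest points of all and Tbx3 (2.78) is the highest.

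Of the 13 varying genes, 11 had r of 0.64 or more to Fbxo15 and -0.64 or less to L1td1. Klf4 had r = 0.97 to Fbxo15, Esrrb, an orphan nuclear receptor, 0.96, and Pecam1, a surface adhesion protein, 0.97, with -0.84, -0.92 and -0.89 to L1td1. The other 2 of the 13 were Nanog, a homeobox factor, and Zfp42, a zinc finger gene also called Rex1, at 0.25 and 0.45 to Fbxo15. The pattern was not particular to the varying genes. Of the broadly carried genes, Sox2 (0.90 to Fbxo15, -0.79 to L1td1) and Mybl2 (0.83, -0.79) met the same cut, and the others did not. The share over all genes was not computed. Of the primed epiblast markers, Fgf5 had r = -0.96, Pou3f1 -0.99, Dnmt3b -0.89 and Otx2 -0.67 to Fbxo15. To L1td1 they had 0.82, 0.80, 0.82 and 0.53 in that order. Those of Pim2 and Krt18 were not computed. These are correlations over the same 9 arrays, which share libraries and scaling, and they carry no test.

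By comparison, 0 of the 13 varying genes were called. Against LIF, 11 of them were lower without LIF, with a median of -0.71, and all 13 were lower with the donor, with a median of -0.80. The difference of Klf2 with the donor was only -0.005. Over all genes 50.4% were higher without LIF and 49.1% with the donor. Most of the 13 followed Fbxo15 over the arrays, so they are not 13 separate results. For no LIF against LIF the median was -1.53 without both arrays on which Socs3 went against the labels and -0.39 with brightness as a block. The first of these values depends on arrays picked by Socs3 and is no separate support. Without the most alike pair of arrays it was -0.25, with 8 of 13 lower. With quantile normalization 12 of 13 were lower with the donor, and without the most alike pair of arrays 11 were lower with the donor, with a median of -0.41. Klf5 and Zfp42, the brightest, had differences of -0.80 and -0.52 between donor and LIF, and Tbx3 and Gbx2, the most variable, of -1.46 and -1.76. Among the 10 broadly carried genes, with 0 called, 5 were lower without LIF and 4 with the donor, with medians of 0.04 and 0.06. Trim28 and Tdgf1, an EGF-CFC coreceptor of Nodal, were the brightest, with differences of 0.12 and -0.66 between donor and LIF. With quantile normalization 7 of the 10 were lower without LIF, with a median of -0.18.

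Between donor and no LIF, 7 of the 13 varying genes were lower, with a median of -0.26. Without both arrays on which Socs3 went against the labels, 1 was lower and the median was 0.42, and without the 3 brighter arrays all 13 were lower, with a median of -0.71. The summed signal of 6 primed epiblast markers ran from 742 to 9101 with LIF, from 971 to 9103 without and from 4740 to 11452 with the donor; the groups overlapped. The part of primed cells in the results was not tested.

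Most genes downstream of DPPA2 and DPPA4 and of the early cleavage embryo could not be followed here. Of 18 listed genes, 9 had a probe set of their own and 5 were tested. Zfp42, which is also among the varying genes, was the brightest of them, at 946 to 2187. Zfp352, a zinc finger gene of that stage, read 0.54 to 15.4, and Mael, a piRNA pathway gene, 32.4 to 258. Syce1, of the synaptonemal complex, read 21.8 to 150, and Nkx2-5, a heart factor, 14.5 to 34.5. The untested Tcstv1, Tcstv3, Usp17la and Tdpoz1 reached at most 11.2 on any array. None of the 5 was called in any comparison. Mael had r = 0.16 to Dppa4 over 9 arrays.

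Germ cell genes, which DPPA3 and the DPPA2 and DPPA4 pair are linked to, were tested for 12 of 15 listed, and 0 were called. Without LIF 9 were higher and 3 lower, with a median of 0.49, and with the donor against no LIF 3 were higher and 9 lower, with a median of -0.73. Without both arrays on which Socs3 went against the labels, 7 were higher without LIF, with a median of 0.38. For donor against no LIF the median was then -0.44, and it was -0.46 with brightness as a block (7 lower) and -0.32 without the 3 brighter arrays (8 lower). Kit, the stem cell factor receptor, was the brightest and the most variable, from 26.2 to 1161, with r = 0.95 to Tcl1 and -0.92 to L1td1. Sycp3, of the synaptonemal complex, ran from 29.7 to 354 with r = 0.77 to Dppa4. Tfap2c, a transcription factor of germ cell precursors, ran from 130 to 431 and was the listed gene with the highest r to Dppa3, 0.66.

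Genes beside the members on the chromosome, and partners of their proteins, were read as well. Dppa3 lies between Gdf3, a TGF-beta family ligand, and Nanog, with 0 protein-coding genes between it and either. Its r was -0.56 to Gdf3 and -0.31 to Nanog over 9 arrays. Morc1, the neighbour of Dppa2 on the other side from Dppa4, had r = 0.37 to Dppa4, and its r to Dppa2 itself was not computed. Kank4, near L1td1, had r = -0.88 to L1td1 and 0.93 to Fbxo15. Usp1 and Patj, also near L1td1, went the other way, with r = 0.66 and 0.32 to L1td1. Of the ligase partners of FBXO15, the scaffold Cul1 had r = -0.84, the adaptor Skp1 -0.63 and Rbx1 -0.19 to Fbxo15, and Cul1 had 0.94 to Dppa4.

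A search of the brightest of the 4 bins named those most alike to each member, by r over 9 arrays among 4591 or 4592 genes. With so few arrays and so many genes high values are common, and they are descriptions. Fbxo15 was closest to Kdelr3, an endoplasmic reticulum retention receptor (0.98), Tcl1 to Zfp740 (0.99), L1td1 to Tax1bp1, an autophagy receptor (0.99), and Dppa4 to Psmd12, a proteasome subunit (1.00). Dppa2 was closest to Zmym1 (0.95), Dppa3 to B2m, the light chain of MHC class I (0.96), Dppa5a to Pgap2 (0.95) and Utf1 to Tbl2 (0.91). Leaving out the most alike pair of arrays, these values ran from 0.88 for Tbl2 to 1.00 for Pgap2.

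Markers of other cells that the cultures could hold were read on the same arrays. Of 8 fibroblast markers, Col3a1, Dcn, Lum and Postn lay below the array's median on all 9 arrays, and the summed signal of the 8 was 79.0 to 149. Another 1 of the 8 lay above the array's median on all 9 arrays, and 4 of the 8 were bright enough to be tested. The sum of 11 markers of primitive and parietal endoderm was 5224 to 16747 with LIF, 2496 to 7367 without and 2436 to 5288 with the donor. It was lowest on no LIF replicate 1 and donor replicate 3, at 2496 and 2436, where L1td1 was highest. The sum of 6 primitive streak markers was 927 and 926 on those 2 arrays and 71.4 to 453 on the other 7. Fewer cells that carry a gene and less RNA of it per cell cannot be told apart in these bulk samples, and the part of these cell types in the member signals was not tested.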

How the data were processed

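RNA of 9 cultures, 3 in each of 3 groups, was hybridised to Affymetrix arrays (Mouse Genome 430, edition 2.0). The deposited values are linear signal intensities of 45101 probe sets, which the authors made with GeneChip Operating System version 1.4.0.036 and global scaling, per the labels' design text; the submitters' processing notes name MAS5. Every column has a 2 percent trimmed mean of 100.001. A common scale of this kind does not level the lower signals, so array medians differ.

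Values were turned to log2(signal + 3), where 3 is the table's 20th percentile rounded. The 64 control probe sets were left out, and 29811 probe sets at or above the 40th percentile of their array on at least 3 arrays were tested. Groups were compared with limma 3.58.1 in R 4.3.3 (lmFit, eBayes with an intensity trend; two-sided) in 1 fit over 9 arrays, with Benjamini-Hochberg adjustment over all tested probe sets at 0.05. The median SE of a difference was 0.5, and the number of arrays limits the precision. The fit was tested on simulated data.

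Probe sets were named where the platform annotation gives 1 symbol. The brightest tested probe set by mean signal stood for a gene. Members and lists were chosen with earlier results of these data known. Lists are described by counts, medians, their 2 brightest and 2 most variable genes; other genes named from them were picked after their values were seen. For each member the 3 genes of highest r in the brightest of 4 equal bins of mean signal were found, and the first is named. All 8 symbols matched RefSeq, and 3 had a promoter there.

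The alternatives were the pseudocount, filter, normalization, variance trend, arrays in the fit, replicate number or brightness as a block, other probe sets and left-out arrays. The fit without the 3 brighter arrays was chosen after seeing the data.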

Additional observations from a re-analysis of the deposited data

How the results depend on the processing

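All 0 calls stayed at 0 under every alternative run for the 3 comparisons. Of 510 alternative values of the 24 member differences, 66 changed sign, and 5 of the 24 kept their sign throughout. None of the 24 was called, and the cause of these changes was not tested. Median centring moved the median of all genes by 0.22 (no LIF against LIF) and -0.23 (donor against no LIF), and quantile normalization by 0.12 and -0.12. With the replicate block the Dppa5a difference between donor and no LIF was -0.47, with a limma adjusted p of 0.916, and no call changed. The deviations of arrays with the same replicate number correlated from -0.60 to 0.65. The lowest value was between LIF and no LIF replicate 2, both doubted for Socs3. The highest was between LIF and donor replicate 1, both brighter arrays. Whether the number pairs the arrays cannot be told from these values.

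For no LIF against LIF, brightness as a block gave -0.23 for Dppa2, -0.066 for Dppa3 and -0.50 for L1td1. Without the 3 brighter arrays these were -0.34, -0.33 and -0.49, and Dppa4 was -0.027. Without the alike pair Dppa2 was -0.28, L1td1 -0.67, Fbxo15 0.074 and Tcl1 0.31. Quantile normalization gave Dppa5a -0.054. Without the 2 arrays doubted for Socs3, Dppa5a was -0.040 and Utf1 -0.0025. Dppa2 was -0.062 by its other probe set.

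For donor against no LIF, brightness as a block gave 0.61 for Dppa2, 0.44 for Dppa3 and 0.55 for Dppa4. Without the brighter arrays Dppa2 was 0.38 and Dppa4 0.49. Without the alike pair Dppa2 was 0.16. Quantile normalization gave Dppa2 0.019 and Utf1 0.0014. Without the doubted arrays Fbxo15 was 0.15 and L1td1 -0.27.

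For donor against LIF, Dppa3 was 0.0058 with a pseudocount of 1, 0.015 after quantile normalization, 0.37 with the brightness block and 0.65 when the doubted arrays were left out. Utf1 was -0.067, -0.10 and -0.28 with the brightness block, without the doubted and without the brighter arrays. Without the alike pair Dppa2 was -0.12, Dppa4 -0.26 and L1td1 -0.20. Dppa2 was -0.26 by its other probe set.

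Leaving out each array in turn, the differences between no LIF and LIF ran from -0.34 to 0.45 for Dppa2, -0.54 to 1.01 for Dppa3, -0.027 to 0.71 for Dppa4, -0.92 to 0.074 for Fbxo15, -1.28 to 0.31 for Tcl1 and -0.67 to 0.74 for L1td1. Between donor and no LIF they ran from -0.34 to 0.35 for Dppa2, -1.02 to 0.52 for Dppa3, -0.68 to 0.070 for Dppa4, -0.85 to 0.15 for Fbxo15 and -0.36 to 1.14 for L1td1. Between donor and LIF they ran from -0.35 to 0.44 for Dppa2, -0.67 to 0.65 for Dppa3, -0.32 to 0.49 for Dppa4, -0.10 to 0.20 for Utf1 and -0.20 to 0.92 for L1td1.

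The SDs over arrays were recomputed with other pseudocounts, quantile normalization and left-out arrays. They moved by less than 1.5 times, except that of Dppa4 without the 3 brighter arrays, 0.40. By its other tested probe set Utf1 had 0.43, more than 1.5 times its main value. By the probe sets chosen they ran from 0.24 to 0.34 for Utf1, 0.25 to 0.32 for Dppa5a, 0.77 to 1.21 for L1td1 and 1.18 to 1.44 for Tcl1.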
